A study of Mus musculus with 6 samples.

Results

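The genes described here are 10 ligand and receptor genes of the fibroblast growth factor (FGF) and hepatocyte growth factor (HGF) systems: 5 FGF ligands (Fgf2, Fgf7, Fgf10, Fgf18 and Fgf21), 3 FGF receptors (Fgfr1, Fgfr2 and Fgfr3), the ligand Hgf and its receptor Met. They were picked by gene symbol, and all 10 were present among the 21988 genes of the expression table. The cells were mouse embryonic fibroblasts (MEFs), primary mesenchymal cells grown out of C57BL/6 embryos at embryonic day 13.5 and kept in DMEM with 10% fetal bovine serum. The cells carried no labelled genetic change or drug. They were harvested after 2, 8 and 14 cumulative population doublings (PD2, PD8 and PD14), a span that the title of the study ties to senescence and to the factors senescent cells secrete. Each group had 2 libraries. One was a strand-specific library from RNA freed of ribosomal RNA (rRNA-depleted) and the other was made by poly(A) enrichment, so replicate number and library method cannot be told apart. The labels name no separate cultures for the libraries. With library method in the model and a single library per method and group, the p-values below rest on how unequally the groups changed in the 2 methods. They do not measure spread between cultures or between replicate libraries of a method, and that inequality may be technical.

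FGFs are secreted proteins that bind receptor tyrosine kinases together with heparan sulfate chains on the cell surface. FGF7 and FGF10 are classic paracrine signals: mesenchymal cells make them, and epithelial cells read them through the IIIb splice form of FGFR2. FGF2 and FGF18 act mainly on mesenchymal receptor forms, whereas FGF21 is an endocrine factor that needs the co-receptor beta-klotho. HGF, known as scatter factor, is likewise made by mesenchyme as an inactive precursor and acts through MET, which is prominent on epithelium. Active FGF receptors and MET feed the RAS-ERK and PI3K pathways.

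Over the span from PD2 to PD14, the transcripts of 3 paracrine ligands and 1 receptor rose and that of the endocrine ligand fell. Hgf, Fgf7 and Fgf10 rose by a log2 of 1.90, 1.68 and 1.73, Fgfr2 rose by 1.56, and Fgf21 fell by 2.72 on the log2(TPM + 1) scale. Fgf2, Fgf18, Fgfr1, Fgfr3 and Met did not pass the test. TPM is transcript abundance per unit length, scaled within each library. Levels of different genes can be set side by side within a library, but their order can depend on library method. All 10 genes reached 1 TPM in 2 or more libraries and were tested, Fgf21 only through its PD2 libraries. At an adjusted p under 0.05 in limma (Benjamini-Hochberg over 13332 genes), 5 of the 10 genes were called, against 11.2% of all genes tested. Of the 10, 4 were called higher, against 6.41% of all genes, and 1 was called lower, against 4.77%. The median change of all genes was 0.06. Because the libraries are bulk RNA, fewer cells of a type and less RNA per cell cannot be told apart.

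**Figure D1:**
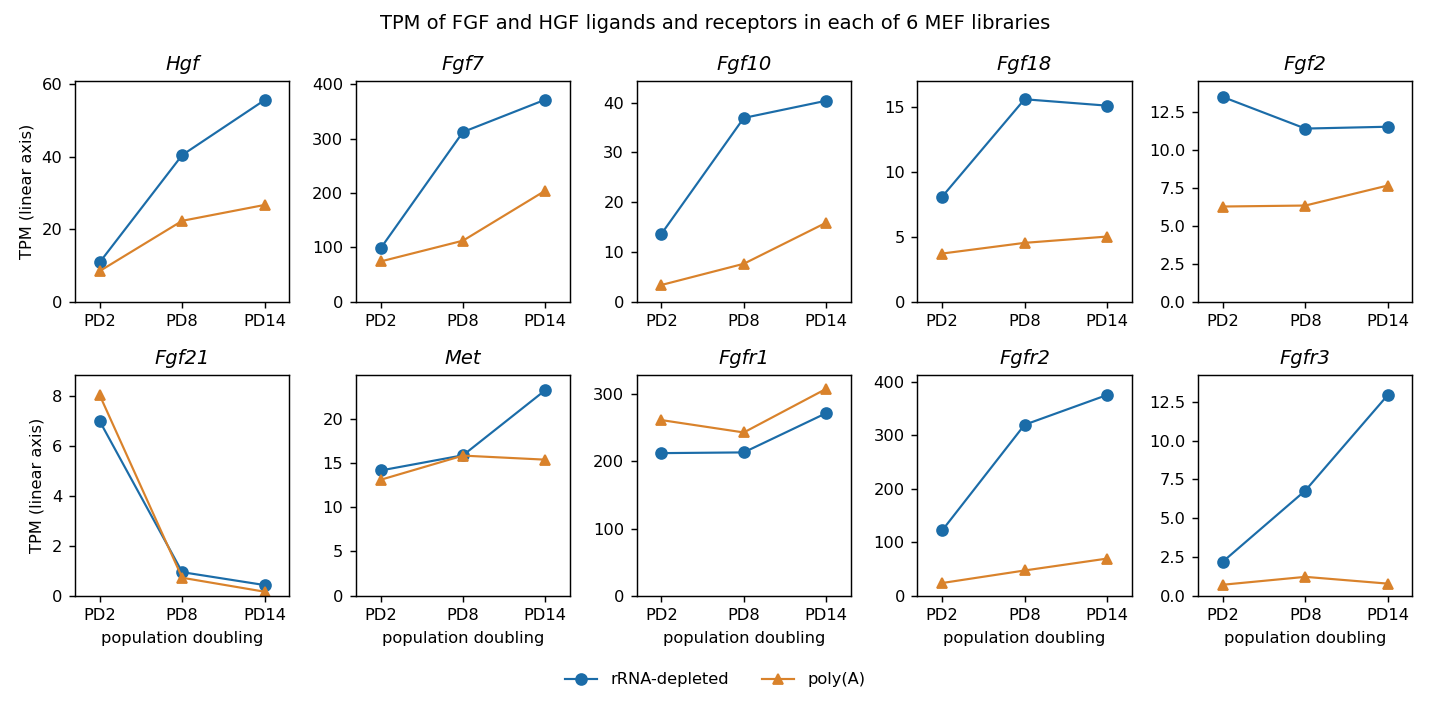
TPM (linear axes, each from 0) of the 10 genes at PD2, PD8 and PD14, with circles for the rRNA-depleted libraries and triangles for the poly(A) libraries; each point is 1 library. Hgf, Fgf7, Fgf10 and Fgfr2 are higher at each later point in both methods and Fgf21 drops from its PD2 points, 6.98 and 8.02 TPM, to under 1 TPM.

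Hgf (chr5:16553495-16620152, plus strand, mm10) encodes the ligand of MET. Its rRNA-depleted libraries held 10.9, 40.5 and 55.6 TPM at PD2, PD8 and PD14. The poly(A) libraries held 8.46, 22.3 and 26.7 TPM. Both PD14 libraries lay above both PD2 libraries, by 5.11-fold in the rRNA-depleted pair and 3.16-fold in the poly(A) pair. The fitted PD14 to PD2 change was 1.90 ± 0.22 (SE, n = 2 libraries per group, made by different methods, limma adjusted p = 0.0199), with a 95% interval of 1.35 to 2.45. Neither single step passed: the fit was 1.55 for PD8 against PD2 (limma adjusted p = 0.0843) and 0.35 for PD14 against PD8. Hgf shares 484 exon bases with the predicted gene Gm43489 on the same strand.

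Fgf7 (chr2:126034658-126091185, plus strand, mm10), keratinocyte growth factor, was by far the most abundant of the 5 FGF ligands. It stood at 97.9, 312 and 372 TPM at PD2, PD8 and PD14 in rRNA-depleted libraries. The poly(A) values were 73.8, 112 and 204 TPM. PD14 and PD2 did not overlap, with PD14 3.79-fold and 2.77-fold higher in rRNA-depleted and poly(A) pairs. The fitted change was 1.68 ± 0.26 (limma adjusted p = 0.0277, 95% interval 1.03 to 2.34). The 2 methods placed the change differently: by PD8 the rRNA-depleted library had moved by a log2 of 1.66 and the poly(A) library by 0.60.

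Fgf10 (chr13:118669791-118792115, plus strand, mm10) encodes the ligand that drives limb and lung budding through the same receptor form as FGF7. Its level was lower than that of Fgf7 in every library: 13.6, 36.9 and 40.4 TPM at PD2, PD8 and PD14 in rRNA-depleted libraries. It was 3.34, 7.60 and 15.9 TPM in poly(A) libraries. Within each method PD14 was above PD2, 2.97-fold in rRNA-depleted and 4.75-fold in poly(A) libraries. Across methods the groups also stayed apart, but narrowly, since the PD14 poly(A) library (15.9 TPM) lay just above the PD2 rRNA-depleted library (13.6 TPM). The fit gave 1.73 ± 0.25 (limma adjusted p = 0.0253, 95% interval 1.10 to 2.36).

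The stretches of DNA just upstream of RefSeq start sites of these ligand genes are shown because Hgf, Fgf7 and Fgf10 rose while Fgf21 fell. The Fgf10 window lies inside the Fgf10 span given above, because the RefSeq start lies further downstream. Another RefSeq window of Hgf, inside the gene, is not shown. Each is the 250 bases before the start of the RefSeq transcript, 5′ to 3′ on the strand of the gene, from RefSeq on GRCm38.p6. Capitals mark matches to the motifs searched. The Hgf, Fgf7 and Fgf10 windows held none of these motifs. The windows are Hgf chr5:16553245-16553494, Fgf7 chr2:126034408-126034657, Fgf10 chr13:118714449-118714698 (all plus strand) and Fgf21 chr7:45615491-45615740 (minus strand).
Hgf: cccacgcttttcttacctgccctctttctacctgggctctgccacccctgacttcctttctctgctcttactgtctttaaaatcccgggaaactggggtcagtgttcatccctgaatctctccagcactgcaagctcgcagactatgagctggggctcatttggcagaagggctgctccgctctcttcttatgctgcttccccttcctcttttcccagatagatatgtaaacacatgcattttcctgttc
Fgf7: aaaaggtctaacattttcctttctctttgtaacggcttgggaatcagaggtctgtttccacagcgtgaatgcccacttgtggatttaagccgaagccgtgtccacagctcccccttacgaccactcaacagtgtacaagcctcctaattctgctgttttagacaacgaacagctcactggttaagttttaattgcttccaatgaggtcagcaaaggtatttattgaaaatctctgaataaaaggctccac
Fgf10: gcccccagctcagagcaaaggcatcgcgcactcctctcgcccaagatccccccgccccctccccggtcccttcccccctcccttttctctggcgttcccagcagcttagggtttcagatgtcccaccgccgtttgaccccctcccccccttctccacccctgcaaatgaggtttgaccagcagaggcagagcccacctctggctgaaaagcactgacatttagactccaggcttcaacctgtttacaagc
Fgf21: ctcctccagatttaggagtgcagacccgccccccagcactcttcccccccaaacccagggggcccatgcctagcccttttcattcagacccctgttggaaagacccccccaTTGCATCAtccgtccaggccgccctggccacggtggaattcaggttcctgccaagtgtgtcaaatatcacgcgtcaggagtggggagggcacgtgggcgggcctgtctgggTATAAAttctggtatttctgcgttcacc
Motifs were searched on both strands as plain letters. They were the TATA box TATAAA (in 12.4% of 32851 mouse promoter windows), AP-1 TGANTCA (6.75%), the amino acid response motif TGATGNAA (3.45%), C/EBP TTGCNNAA (9.56%), the interferon response motif (2.98%), NF-kappaB (3.90%), cyclic AMP response TGACGTCA (1.55%) and TEAD GGAATG (12.6%). The Fgf21 window held TTGCATCA, the amino acid response motif read on the other strand, starting 139 bases before the start site, and TATAAA at 28 bases before it. RefSeq windows were at hand for 9 of the 10 genes, 11 windows in all, without Fgfr1. The only other match was AP-1 in the Met window. A match is a description of letters and says nothing about occupancy.

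Fgf21 (chr7:45613886-45615490, minus strand, mm10) encodes a hormone made by liver and, under stress, by muscle and other tissues; in mouse and human cells the stress factor ATF4 is known to act on it through amino acid response elements. It was detected above 1 TPM at PD2 only, with 6.98, 0.943 and 0.426 TPM at PD2, PD8 and PD14 in rRNA-depleted libraries. Poly(A) libraries held 8.02, 0.719 and 0.159 TPM. The 2 methods gave like values at PD2 and all 4 later libraries lay below both. PD2 exceeded PD14 16.4-fold in the rRNA-depleted pair and 50.4-fold in the poly(A) pair. The fitted change was −2.72 ± 0.27 (limma adjusted p = 0.0166, 95% interval −3.40 to −2.05), the 11th lowest of 13332 genes. The added 1 compresses a fall to so low a level: with log2(TPM + 0.1) the same contrast was −4.36 (limma adjusted p = 0.0204). Without the filter on low values, which the gene passed through its PD2 libraries, the limma adjusted p was 0.0402.

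Markers of liver and muscle were read beside Fgf21. Of 6 hepatocyte markers 1 was tested, and their summed level was 0.722, 0.215 and 0.134 TPM at PD2, PD8 and PD14 in rRNA-depleted and 6.49, 2.39 and 4.12 TPM in poly(A) libraries. The poly(A) sum joins opposite courses. Alb, the tested marker, was at 0.461, 1.24 and 3.54 TPM there and was not called. Ttr, not tested, was at 5.29, 0.105 and 0 TPM. Of 6 skeletal muscle markers 3 were tested and all 3 (Des, Acta1 and Tnnt3) fell. The summed level of the 6 was 47.5, 12.6 and 5.43 TPM in rRNA-depleted and 101.5, 32.9 and 12.5 TPM in poly(A) libraries. Whether the liver or muscle markers play a part in the Fgf21 result was not tested.

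Fgf18 and Fgf2 completed the ligands and did not pass the test. Fgf18 (chr11:33117430-33147400, minus strand, mm10), a ligand known in cartilage and bone, had 8.10, 15.6 and 15.1 TPM at PD2, PD8 and PD14 in rRNA-depleted libraries. It had 3.71, 4.54 and 5.02 TPM in poly(A) libraries. PD14 and PD2 overlapped across methods, and the fit was 0.59 ± 0.24 (limma adjusted p = 0.171, 95% interval −0.03 to 1.21). Fgf2 (chr3:37348346-37410108, plus strand, mm10), basic FGF, which leaves cells without a signal peptide, was at 13.5, 11.4 and 11.5 TPM in rRNA-depleted libraries. Its poly(A) libraries held 6.26, 6.33 and 7.64 TPM. The 2 methods went in opposite directions from PD2 to PD14 (log2 −0.21 in rRNA-depleted and 0.25 in poly(A)). The fit was 0.02 ± 0.21 (limma adjusted p = 0.957, 95% interval −0.52 to 0.57) and turned to −0.14 under quantile normalization and −0.0094 when scaled without mitochondrial genes. Fgf2 shares 640 exon bases with the antisense gene Nudt6, at 3.78 to 6.00 TPM, and in poly(A) libraries, for which no strand is stated, reads of the pair may not be told apart. Fgf2 also shares 255 exon bases with Gm43439 on the same strand, where strand cannot separate the reads in either method.

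Among the receptors, Fgfr2 (chr7:130162451-130266808, minus strand, RefSeq on GRCm38.p6) rose. In the rRNA-depleted libraries it had 122, 320 and 375 TPM at PD2, PD8 and PD14. The poly(A) libraries had 23.7, 47.2 and 69.4 TPM. PD14 was 3.07-fold above PD2 in the rRNA-depleted pair and 2.93-fold in the poly(A) pair, nearly equal folds on very different levels. Every rRNA-depleted value was above every poly(A) value, so the PD14 and PD2 groups overlap unless the methods are read apart. The fit gave 1.56 ± 0.15 (limma adjusted p = 0.0166, 95% interval 1.19 to 1.93). Gene-level TPM do not separate the IIIb form that binds FGF7 and FGF10 from the IIIc form. In GENCODE M21 the Fgfr2 record shares 314 exon bases with Ctbp2 on the same strand. Ctbp2 was at 53.2 to 75 TPM and its own change was −0.16 (limma adjusted p = 0.580).

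Fgfr1 (chr8:25513654-25575718, plus strand, mm10), the main mesenchymal FGF receptor, was high in every library. Its levels were 212, 213 and 272 TPM at PD2, PD8 and PD14 in rRNA-depleted libraries. They were 262, 243 and 308 TPM in poly(A) libraries. Both PD14 libraries lay above both PD2 libraries, but by little. The fit of 0.30 ± 0.11 did not pass (limma adjusted p = 0.151, 95% interval 0.0048 to 0.59). It shares 164 exon bases with the antisense gene Gm16159, and Fgf10 shares 123 with the antisense gene Gm16263.

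Fgfr3 (chr5:33721674-33737068, plus strand, mm10), a receptor known from growth plate cartilage, had 2.20, 6.78 and 12.9 TPM at PD2, PD8 and PD14 in rRNA-depleted libraries. In poly(A) libraries it stayed between 0.707 and 1.21 TPM. The log2 change from PD2 to PD14 was 2.12 in the rRNA-depleted pair and 0.06 in the poly(A) pair. The fit of 1.09 ± 0.51 did not pass (limma adjusted p = 0.210, 95% interval −0.20 to 2.38). Fgfr3 shares 998 exon bases with the opposite-strand G630022F23Rik. Cartilage and bone markers were read beside Fgfr3. Their summed level was 211, 485 and 728 TPM at PD2, PD8 and PD14 in rRNA-depleted libraries and 34.9, 39.0 and 34.3 TPM in poly(A) libraries. Of these 10 markers 6 were tested and 0 were called. Col2a1, the main cartilage collagen, was at 112, 224 and 333 TPM in rRNA-depleted and 8.55, 10.4 and 4.16 TPM in poly(A) libraries. Comp, a cartilage matrix protein gene, was higher at PD14 than at PD2 in both methods (log2 3.96 and 1.37), as was Alpl (1.43 and 0.90), and none of the 3 passed. Runx2, a bone regulator gene, was at 0.0013 in the rRNA-depleted pair and −0.12 in the poly(A) pair. Their part in the Fgfr3 and Fgf18 values was not tested.

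Met (chr6:17463800-17573980, plus strand, mm10), the HGF receptor, had 14.1, 15.9 and 23.2 TPM at PD2, PD8 and PD14 in rRNA-depleted libraries. It had 13.1, 15.8 and 15.4 TPM in poly(A) libraries. PD14 lay above PD2 in both pairs without overlap, but the fit of 0.45 ± 0.21 did not pass (limma adjusted p = 0.212, 95% interval −0.09 to 0.98). Of the 10 genes, 6 had non-overlapping PD14 and PD2 values (Hgf, Fgf7, Fgf10, Fgf21, Fgfr1 and Met), against 38.2% of the genes tested. Of 12 epithelial markers, read beside the receptors, 5 were tested and 2, Krt18 (tested through its PD2 libraries alone) and Krt19, fell. Their summed level was 25.7, 13.3 and 8.15 TPM at PD2, PD8 and PD14 in rRNA-depleted and 46.4, 13.6 and 5.16 TPM in poly(A) libraries. Esrp1, a splicing factor that promotes the epithelial FGFR2 form, was at 0 in every library, and Epcam and Cdh1 reached at most 0.426 and 0.772 TPM. The related gene Esrp2 was present, at 1.84, 2.23 and 1.95 TPM at PD2, PD8 and PD14 in rRNA-depleted libraries. It stood at 2.90, 5.21 and 2.61 TPM in poly(A) libraries and was not called. The part of these markers in the receptor values was not tested.

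**Figure D2:**
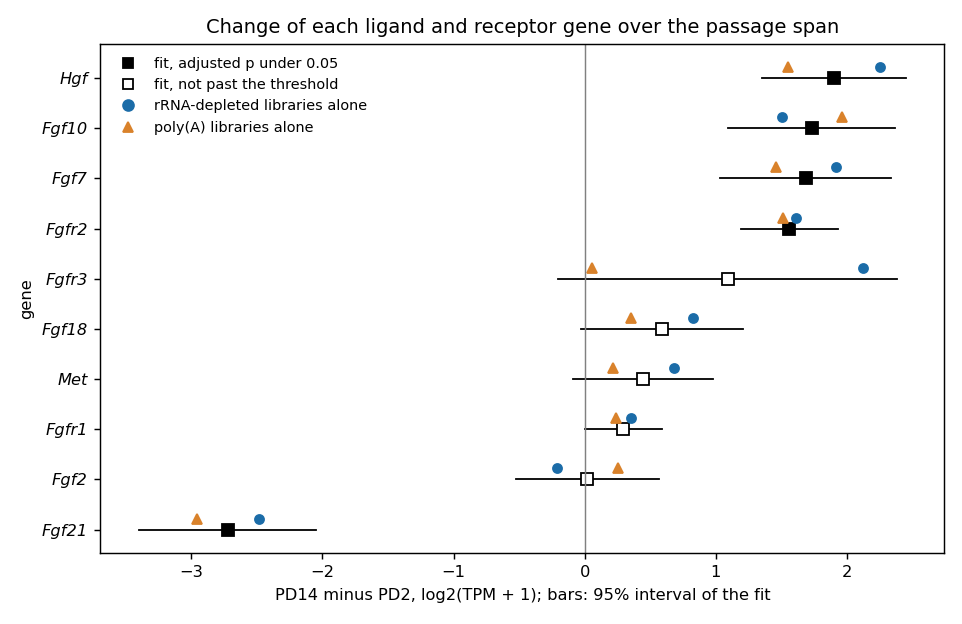
PD14 minus PD2 change on the log2(TPM + 1) scale for each gene. Squares are the fit over both methods with its 95% interval (filled where the adjusted p is under 0.05), circles the rRNA-depleted pair and triangles the poly(A) pair. Fgfr3 shows the widest interval (−0.20 to 2.38), with its pairs at 2.12 and 0.06.

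Calls were lost under some settings, while the fitted changes of the 5 called genes kept their direction. With library method left out of the model, 0 of the 10 genes and 0 of all genes were called, with limma adjusted p of 0.291 for Hgf, 0.375 for Fgf7, 0.584 for Fgf10, 0.755 for Fgfr2 and 0.192 for Fgf21. Leaving out either PD8 library or either PD14 library also lost all 5 calls, and few or no genes were called over all genes. Leaving out either PD2 library kept the 5 calls, but many genes were then called over all genes, as in the main fit. Each of these fits leaves 1 library in a group. The fitted changes of the 5 genes were the same without the block or without either PD8 library. The balanced design fixes this in advance, so it is no check on the values. Without a PD14 library they ran from 1.68 to 2.13 for Hgf, 1.65 to 1.72 for Fgf7, 1.41 to 2.06 for Fgf10, 1.51 to 1.62 for Fgfr2 and −2.87 to −2.57 for Fgf21.

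The make-up of the ligand pool followed from these values. Summed over the 5 FGF ligands, TPM was 140, 377 and 439 at PD2, PD8 and PD14 in rRNA-depleted libraries and 95.2, 131 and 233 in poly(A) libraries. Fgf7 made up 69.9%, 82.8% and 84.6% of that sum in rRNA-depleted and 77.6%, 85.4% and 87.7% in poly(A) libraries. The Fgf21 share was 4.99%, 0.250% and 0.0970% in rRNA-depleted and 8.43%, 0.547% and 0.0684% in poly(A) libraries. The shares are descriptions of single libraries.

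On the receptor side Fgfr1 was above Fgfr2 in both methods at PD2, and their order differed by method at PD8 and PD14. Fgfr2 over Fgfr1 was 0.575, 1.498 and 1.38 at PD2, PD8 and PD14 in rRNA-depleted libraries. It was 0.0906, 0.194 and 0.225 in poly(A) libraries. Fgfr1, Fgf7 and Fgfr2 were the top 3 of the 10 genes in each of the 6 libraries. Hgf over Met was 0.771, 2.55 and 2.40 in rRNA-depleted and 0.646, 1.41 and 1.74 in poly(A) libraries, so Met was the more abundant of the pair at PD2 and Hgf at PD8 and PD14.

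**Figure D3:**
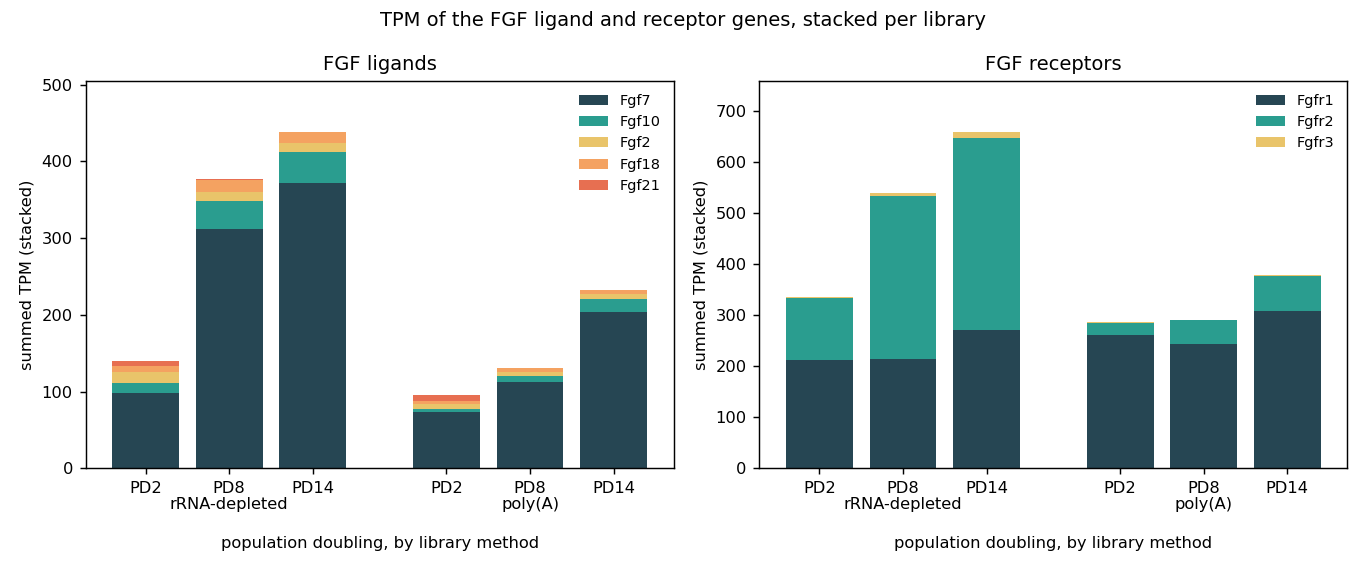
Summed TPM (linear axes from 0) of the FGF ligands, left, and FGF receptors, right, stacked by gene in each library. Fgf7 fills 69.9% to 87.7% of every ligand bar, and the Fgfr2 part is far larger in rRNA-depleted than in poly(A) bars.

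The single steps gave no calls among the 10 genes. From PD2 to PD8, 0 of the 10 genes passed in limma, against 0.0225% of all genes tested, and 5 of the 10 (Hgf, Fgf7, Fgf10, Fgfr2 and Fgf21) had an unadjusted p under 0.05, against 20.3% of all genes. Their fitted changes were 1.55, 1.13, 1.18, 1.17 and −2.22, with limma adjusted p from 0.0800 to 0.126. Leaving out the PD2 rRNA-depleted library gave 3 calls among the 10 and 641 over all genes, and leaving out the PD2 poly(A) library gave 4 and 296. From PD8 to PD14, 0 of the 10 passed in limma, against 0% of all genes tested, and Fgfr1 (0.34) and Fgfr2 (0.39) had an unadjusted p under 0.05, against 5.6% of all genes.

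The late step was also set against the early one. Of the 10 genes 0 passed in limma, against 0% of all genes, and 3 had an unadjusted p under 0.05, against 4.25% of all genes. Those were Hgf, with a late minus early difference of −1.20, Fgfr2 with −0.78 and Fgf21 with 1.71, each with the larger fitted change in the early step. A single F test over the 3 groups called Fgf21 (limma adjusted p = 0.0415), Fgfr2 (0.0415) and Hgf (0.0472), against 1.46% of all genes; Fgf10 (0.0631) and Fgf7 (0.0684) did not pass. Hgf, Fgf7, Fgf10 and Fgfr2 went up at both steps in both methods, as did 15.0% of the genes tested.

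The libraries were also compared by method. Between rRNA-depleted and poly(A) libraries, 7 of the 10 were called, all higher in rRNA-depleted, against 37.3% of all genes in either direction and 20.9% higher. The differences were 2.49 ± 0.12 for Fgfr2 (limma adjusted p = 0.0029), 1.90 for Fgfr3, 1.73 for Fgf10, 1.32 for Fgf18, 0.91 for Fgf7, 0.76 for Fgf2 and 0.73 for Hgf. Fgf21 (0.10), Fgfr1 (−0.22) and Met (0.22) did not pass. Fgfr2 was 5.15, 6.78 and 5.41 times higher in rRNA-depleted than in poly(A) libraries at PD2, PD8 and PD14. Without a PD8 library 2 of the 10 passed, with 728 or 801 calls over all genes, and without a PD14 library 3, with 2129 or 2218, against 4972 with all libraries.

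The genes with the most similar course to each called gene were found from log2(TPM + 1) over the 6 libraries, centred within each method, among 10686 genes (10687 for Fgf21) with a mean TPM of at least 5, predicted and mitochondrial genes passed over. For Hgf they were Arhgap20, a GTPase activator (root mean square difference 0.0857), Thbd, thrombomodulin (0.1002), and Cpxm2 (0.104). For Fgf10 they were Smad6, an inhibitor of BMP signalling (0.0623), Sfrp1, a WNT antagonist (0.0968), and Adm, the peptide adrenomedullin (0.127). For Fgf7 they were Smad9 (0.110), Cst3, the protease inhibitor cystatin C (0.121), and Plekha4 (0.125). Fgfr2 lay nearest to Abat (0.0348), Aim1 (0.0576) and Cst3 (0.0689). Fgf21 had no gene within 0.2, and its nearest were Tfpi2, a protease inhibitor (0.219), Nes, the intermediate filament nestin (0.248), and Cmklr1, the chemerin receptor (0.285). With a mean of 2.88 TPM, Fgf21 itself lay below the cut of 5, so genes as low as it were not among those compared. Within 0.2 there were 92 genes for Fgfr2, 43 for Fgf10, 29 for Hgf and 24 for Fgf7. Among the 10 genes the closest pairs were Fgf10 with Fgfr2 (0.150) and Fgf7 with Fgfr2 (0.150). Pairs of uncalled genes were nearly as close, Fgfr1 with Met (0.155) and Fgf2 with Fgfr1 (0.168).

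The other genes of the 2 systems were read from 7 lists, for PD14 against PD2. With library method left out of the model, 0 genes of any of the lists were called. Over all genes tested in the main fit, 6.41% were called higher and 4.77% lower, and the median change was 0.06. Of 17 other FGF ligands 6 were tested and 0 were called (median 0.09). The largest changes were those of Fgf14 (0.75) and Fgf13 (−0.36), which encode intracellular FGF homologues. Of 12 co-receptors, decoys and binding proteins 9 were tested, 0 rose and 1 fell (median 0.19). Fgfbp1, which encodes a carrier that frees FGFs from the matrix, fell by 2.40 ± 0.43 (limma adjusted p = 0.0346). Its levels were 2.06, 0.0914 and 0 TPM at PD2, PD8 and PD14 in rRNA-depleted and 9.97, 1.29 and 0.197 TPM in poly(A) libraries. Fgfrl1, a receptor without a kinase domain, had 18.9, 122 and 193 TPM in rRNA-depleted but 22, 19.0 and 32.5 TPM in poly(A) libraries, and its fit of 1.91 ± 0.71 did not pass (limma adjusted p = 0.141). Ncam1, an FGFR-binding adhesion protein, was at −1.27 and did not pass. Klb, the beta-klotho gene that FGF21 needs, reached at most 0.1 TPM, and Kl at most 0.014 TPM.

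Of 25 heparan sulfate carriers and enzymes, which present FGFs to their receptors, 24 were tested, 4 rose and 2 fell. The median change was 0.44, against 0.06 over all genes; it was 0.17 in rRNA-depleted and 0.47 in poly(A) libraries, and 0.18 in the fit without the PD2 poly(A) library. Those that rose were the syndecans Sdc2 (0.79) and Sdc4 (1.11), agrin (Agrn, 1.44) and Hs3st1 (1.73), a sulfotransferase. Hs6st1, which adds 6-O sulfate, and Glce, the glucuronic acid epimerase, fell by 0.82 each. The glypicans Gpc6 (1.18) and Gpc3 (−1.05) did not pass.

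Of 25 adaptors and proximal signalling genes, all tested, 1 rose and 2 fell (median 0.01). Pik3r1, the p85 subunit of PI3K, rose by 1.12, while Nras, which encodes a small GTPase, fell by 0.81. The adaptor genes Frs3 (0.95) and Gab1 (0.45) did not pass. Of 22 feedback and target genes of FGF and ERK signalling 1 rose, the cyclin gene Ccnd1 (1.17), and 0 fell. The median was −0.42 and its sign differed by method, at −0.84 in rRNA-depleted and 0.20 in poly(A) libraries. Dusp5, an ERK phosphatase (−1.48), and Egr2 (−1.30) did not pass.

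Of 26 activators and inhibitors of HGF and partners of MET, 16 were tested, 2 rose and 1 fell (median 0.11). Hpn, encoding the HGF-activating protease hepsin, rose by 1.46 and stayed low, at 1.73, 2.71 and 5.36 TPM at PD2, PD8 and PD14 in rRNA-depleted and 0.431, 2.09 and 3.65 TPM in poly(A) libraries. Timp3, a metalloprotease inhibitor, rose by 1.17. Cd44, whose product is a co-receptor for MET, fell by 1.23, to 99.8 TPM at PD14 against 282 TPM at PD2 in rRNA-depleted and 286 against 563 TPM in poly(A) libraries. Lrig1 (−0.85) and the protease gene St14 (0.76) did not pass.

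Amino acid stress genes, a list to which Fgf21 belongs by its known regulation, contained 19 genes besides it, all tested. Of them 0 rose and 8 fell, with a median of −0.76. Over all genes tested 6.41% were called higher and 4.77% lower, with a median of 0.06. The 6 largest falls among those called were those of Psat1 (−1.52), Phgdh (−1.16) and Shmt2 (−1.31), enzymes of serine and glycine synthesis, Slc7a5 (−1.29), an amino acid transporter, Trib3 (−1.03) and Eif4ebp1 (−0.88). Chac1 (−0.99) and Cebpb (1.25) did not pass. Atf4 itself was at −0.66 and did not pass either (limma adjusted p = 0.0627). Psat1 had 201, 119 and 69.6 TPM at PD2, PD8 and PD14 in rRNA-depleted and 266, 128 and 91.2 TPM in poly(A) libraries. Whether the genes of this list play a part in the Fgf21 result was not tested.

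**Figure D4:**
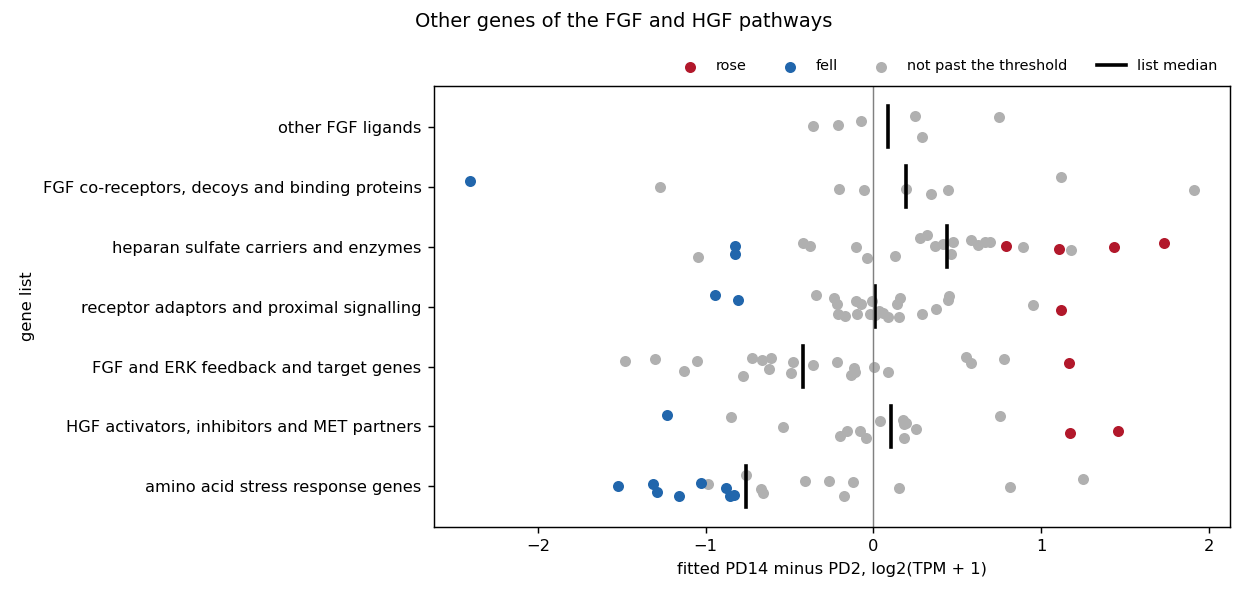
PD14 minus PD2 change on the log2(TPM + 1) scale of the tested genes of 7 lists; each point is 1 gene, coloured where it rose or fell past the threshold, and the bar is the list median. The medians run from −0.76 for the amino acid stress genes to 0.44 for the heparan sulfate genes.

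Fibroblast markers were abundant, with all 10 tested and a summed level of 20177, 29191 and 29711 TPM at PD2, PD8 and PD14 in rRNA-depleted and 15072, 23075 and 19933 TPM in poly(A) libraries. Of them 3 (Col3a1, Dcn and Lum) rose beside Hgf, Fgf7 and Fgf10, and whether they share in those results was not tested. Leukocyte markers (8 tested, 0 called) went in opposite directions by method. They summed to 44.0, 11.7 and 17.7 TPM at PD2, PD8 and PD14 in rRNA-depleted and 57.7, 84.9 and 105 TPM in poly(A) libraries. Of 7 endothelial markers 4 were tested and 1, Kdr, fell, with sums between 16.3 and 24.1 TPM in rRNA-depleted and 5.10 and 15.7 TPM in poly(A) libraries. The deposited TPM summed to 1000000 in each poly(A) library and to 93.7% to 95.1% of that in rRNA-depleted ones, and since no read counts can be had from TPM, the depth behind each value is unknown.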

How the data were processed

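RNA was measured in 6 MEF libraries, 2 at each of PD2, PD8 and PD14. The authors deposited TPM per gene. Per the submitters' processing notes, bcl2fastq, cutadapt 1.14, HISAT2 2.0.5 and StringTie 1.3.1c were used with the mm10 build; the annotation is not given in the sources used here. Every column of the table matched a sample. For this work limma 3.58.1 (R 4.3.3) was run on log2(TPM + 1) of the 13332 genes that reached 1 TPM in 2 or more libraries. The added 1 understates changes of low genes. The model had group terms and library method (replicate number) as a block, and the trend option was on. Residual degrees of freedom were 2, to which limma's prior added 3.22. P-values are two-sided and adjusted by Benjamini-Hochberg over all genes tested, with a threshold of 0.05. Errors written ± are standard errors of the fit. They reflect how unequally the groups changed in the 2 methods, not the spread between replicate libraries of a method. Same-numbered libraries deviated together from their group means, with correlations of 0.752 (PD2 and PD8), 0.664 (PD2 and PD14) and 0.854 (PD8 and PD14), so the number was kept as a block. The labels tie it to library method.

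The 10 genes, the 7 lists and the 7 marker lists (fibroblast, epithelium, leukocyte, endothelium, hepatocyte, cartilage and bone, muscle) were chosen with earlier results of these data known. Named are the 10 genes, up to 6 called genes and the 2 largest uncalled of each pathway list, the 3 genes of most similar course, and overlapping genes. Other marker genes, Klb, Kl and Atf4 are named as examples. One gene that this rule selects is not reported here. Positions are from GENCODE M21 or, for Fgfr2 and the promoters, RefSeq. Alternatives were another pseudocount, other filters, no trend, quantile normalization, scaling without mitochondrial genes, no block, and leaving out each library.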

Additional observations from a re-analysis of the deposited data

Results flagged for a closer look

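Some genes changed in opposite directions in the 2 library methods, with 1 pair of libraries each, so the difference between methods was not tested. Values are the rRNA-depleted change minus the poly(A) change in log2(TPM + 1). For PD14 against PD2 they were −0.46 for Fgf2, −1.97 for Lrig1, −2.78 for Cebpb, −1.52 for the fibroblast marker Thy1, −2.64 for the macrophage marker Adgre1 and −1.76 for the hepatocyte marker Alb. For PD8 against PD2 they were −0.24 for Fgf2 and 0.11 for Fgfr1. For PD14 against PD8 they were −0.16 for Fgf18, 1.16 for Fgfr3 and 0.56 for Met.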

How the results depend on the processing

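The count of the 10 genes called for PD14 against PD2 was 5, beside 1490 of all 13332 genes tested. It was 5 with another pseudocount, no trend, quantile normalization or scaling without mitochondrial genes. It was 4 with a mean TPM of at least 5, which leaves Fgf21 out. Over all genes these settings called from 938 (no trend) to 1577 (quantile normalization). With no filter on low values it was 3 (Fgf7 and Fgf10 at limma adjusted p of 0.0586 and 0.0571), beside 404 of 17926 genes. With no replicate block it was 0, as it was over all genes. With 1 library left out the calls were lost or kept depending on the library. Without the replicate block all 7 lists had 0 called, and with 1 library left out their counts ran from 0 to as many as 10, for the heparan sulfate and the amino acid stress genes. For PD8 against PD2 the count was 0, and 0 to 4 with 1 library left out. For the F test it was 3, beside 195 of all genes tested. With no filter, no trend or no replicate block it was 0, and 0 genes were called over all genes too. It moved both ways with 1 library left out. For rRNA-depleted against poly(A) it was 7, and 2 to 6 with 1 library left out. For PD14 against PD8 and late minus early it was 0 in every setting. Where a library is left out, its lone partner is assumed to vary like the other groups. The causes were not tested.

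Sign changes touched uncalled values only. Fgf2 for PD14 against PD2 was −0.14 with quantile normalization, −0.0094 when scaled without mitochondrial genes and −0.15 to 0.20 with 1 library left out. With 1 library left out the ranges were, for PD8 against PD2, −0.28 to 0.0689 for Fgf2 and −0.11 to 0.0090 for Fgfr1; for PD14 against PD8, −0.045 to 0.30 for Fgf2, −0.16 to 0.24 for Fgf18, −0.54 to 1.07 for Fgfr3 and −0.015 to 0.50 for Met; and for late minus early, −1.41 to 0.26 for Fgf7, −1.37 to 0.24 for Fgfr3 and −0.30 to 0.37 for Met. List medians took the other sign in 1 alternative for the ERK feedback genes, 4 for adaptors, 5 for HGF activators and 6 for other FGF ligands. TPM without counts limit what can be said of genes near 1 TPM, such as Fgf21 after PD2 and Fgfr3 in poly(A) libraries.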
